A study of Sus scrofa with 6 samples.

Results

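MHC class I and beta-2-microglobulin (B2M) are described here from the fragments of their transcripts that were listed in small RNA libraries of pig duodenum. The members were the 201-base windows of genome that translate, in any frame, to at least 25 residues at 70% identity or more to the MHC class I alpha chain, on chromosome 7 between 24400000 and 27700000, or to B2M, on chromosome 1 between 132600000 and 132900000. No protein file was given for this comparison, so the query proteins were written from memory, and each identity and residue number below refers to them. In all, 225 of the 53269 window listings of the series met this rule, 203 for MHC class I and 22 for B2M. The same window can be listed in several libraries, and the 203 MHC class I listings lay at 161 positions. Just inside the threshold stood 11 MHC class I listings at 70% to 75% identity. Just outside it stood 17 listings of the same interval at 60% to 69.7% identity, with a summed count of 171, and no B2M listing.

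The study compared Sutai piglets aged 28 days by their genotype at M307 of FUT1, a fucosyltransferase gene tied to the binding of Escherichia coli F18 in the gut. The AA piglets, labelled as resistant, were 524 and 2129, and the GG piglets, labelled as sensitive, were 512, 2134 and 2383. Piglet 512 was sequenced in 2 runs, which were summed and counted as 1 animal, so that 6 libraries stood for 2 AA and 3 GG piglets. Full-sib pairs joined 524 with 512 and 2129 with 2134; the sib of 2383 was not analysed here. The labels name no treatment, all animals were housed alike, and the RNA came from whole duodenal tissue. In such tissue, fewer cells of a type and less RNA per cell cannot be told apart.

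The total listed count ranged from 42354 in piglet 2383 to 192861 in piglet 2134, over 3998 to 19473 windows per library, and no window below a count of 5 was listed. A shallow library therefore lists fewer windows of a given transcript, and a member that is not listed may hold up to 4 counts per window. The AA piglets had totals of 56334 and 127075, and the runs of piglet 512 had 96244 and 89996. The files do not say if a count is of reads or of different sequences, and p-values measure only the spread between these 5 piglets.

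MHC class I molecules hold short peptides from inside the cell at the surface, where cytotoxic T cells read them. The alpha chain folds into the alpha 1 and alpha 2 domains, which form the peptide groove, the immunoglobulin-like alpha 3 domain, which binds the CD8 coreceptor, and a transmembrane part with a cytoplasmic tail. B2M is a small separate chain that pairs with alpha 3 and is needed for the complex to reach the surface. In the pig the family is called SLA, lies on chromosome 7, and has several classical genes and pseudogenes of very similar sequence. In the gut, both chains are made by the epithelium and by immune cells and rise with interferon.

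The sequences below carry a fragment at the end of alpha 3 that many copies share. No fragment at this place was listed in piglets 524 and 2383. The sequences are the letters of the files' forward strand, 5′ to 3′. The genome build is not given in the sources used here. Copies are numbered C1 to C9 along chromosome 7 and B1 and B2 along chromosome 1. In these 3 windows of piglet 2134, capitals mark the run of 53 bases, window bases 81 to 133, that was identical in all 8 copies listed with this fragment.

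C2 alpha 3, chr7:24461353-24461553: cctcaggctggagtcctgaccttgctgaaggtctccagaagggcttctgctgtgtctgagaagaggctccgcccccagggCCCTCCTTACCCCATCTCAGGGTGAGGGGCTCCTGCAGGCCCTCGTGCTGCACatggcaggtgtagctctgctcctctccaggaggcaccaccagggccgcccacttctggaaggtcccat
C6 alpha 3, chr7:26560190-26560390: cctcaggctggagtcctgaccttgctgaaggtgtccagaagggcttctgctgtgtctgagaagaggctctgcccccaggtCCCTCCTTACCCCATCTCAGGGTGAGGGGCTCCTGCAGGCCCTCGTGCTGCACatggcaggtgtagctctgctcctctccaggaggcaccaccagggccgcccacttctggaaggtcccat
C9 alpha 3, chr7:27605962-27606162: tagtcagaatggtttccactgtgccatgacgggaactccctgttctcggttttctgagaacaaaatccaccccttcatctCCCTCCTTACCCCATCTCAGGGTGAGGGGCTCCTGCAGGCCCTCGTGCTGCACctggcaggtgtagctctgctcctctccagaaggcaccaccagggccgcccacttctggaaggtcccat

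C6 differed from C2 at 3 of the 201 bases and C9 at 56, all outside the capitals. In the 2 windows below, the top ones of B2M and of alpha 1, capitals mark window bases 101 to 130. These bases run from the low-coordinate end of the counted fragment, and both coding matches read on the minus strand.

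B1 B2M, chr1:132686683-132686883: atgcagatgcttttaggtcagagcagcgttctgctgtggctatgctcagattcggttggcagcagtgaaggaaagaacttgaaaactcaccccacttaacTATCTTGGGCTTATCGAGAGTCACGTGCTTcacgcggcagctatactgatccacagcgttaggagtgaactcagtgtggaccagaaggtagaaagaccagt
C2 alpha 1, chr7:24462727-24462927: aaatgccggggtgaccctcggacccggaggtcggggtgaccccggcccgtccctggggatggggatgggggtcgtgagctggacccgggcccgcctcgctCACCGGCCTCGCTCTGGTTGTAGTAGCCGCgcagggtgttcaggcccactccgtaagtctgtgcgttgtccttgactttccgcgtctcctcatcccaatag

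The low-coordinate end of the fragment was taken at the middle base of its window, 101, and compared with the files. The length of 30 bases was chosen, not read from the files. In 323 pairs of near-identical windows of 1 library with the same count, bases 101 to 130 differed in 0.0103% of comparisons, against 5.31% at bases 1 to 50 and 3.28% at bases 51 to 100. The share was 0.031% at bases 131 to 140 and 3.53% from base 141 to base 201, so base 130 does not mark the far end of the fragments. The low-coordinate end of the counted fragments thus lay at base 101, with 100 bases of flank before it. By this measure 216 of the 225 member listings had all of bases 101 to 130 inside the coding match and 9 had them partly inside. None had them wholly outside the match.

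**Figure D1:**
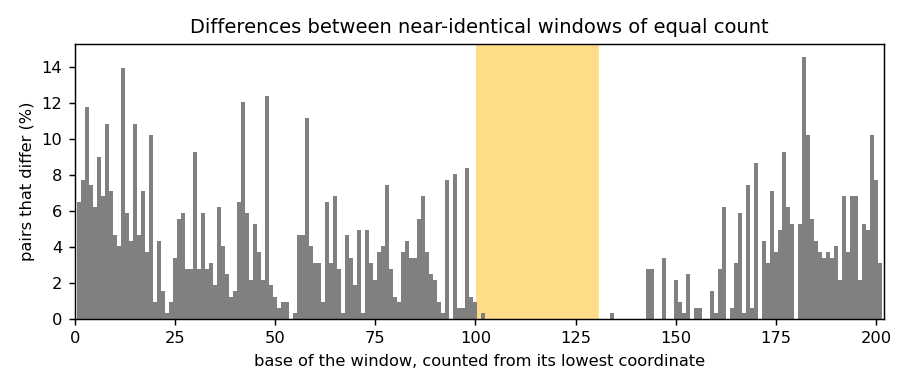
Share of 323 pairs of near-identical windows with the same count that differ at each base of the window (bars, in %), against the base counted from the lowest coordinate. The shaded bases 101 to 130 are almost free of differences (0.0103%), while bases 1 to 50 differ in 5.31%.

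MHC class I listings fell into 9 copies. Copy C2, at chr7:24461109-24463144, had the highest summed count, 960 over the 6 libraries, with windows in alpha 1, alpha 2, alpha 3 and the transmembrane part. C5 followed with 649, C1 with 519, C3 with 517, C6 with 381, C8 with 338, C4 with 336, C9 with 148 and C7 with 27. C2, C3, C4, C5 and C8 had windows in all 4 of these parts, C1 in 3 and C6 in 2. C7 and C9 had windows in alpha 3 alone. C7 was the copy whose match read on the plus strand of chromosome 7. No window was assigned to the signal peptide in any library. The median identity of the MHC class I listings to the query was 90.0%, and 9 of 203 matched without a difference, whereas all 22 B2M listings matched at 100%.

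Copy C2 was listed in every library. Its counts were 19 in piglet 524, 86 in 2129, 181 and 201 in the runs of 512, 419 in 2134 and 54 in 2383. Piglet 524 was the lowest, with a total listed count above that of 2383, and the cause was not tested. In piglet 524 the other 8 copies were not listed at all. C1 was listed at 55 in piglet 2129, at 104 and 123 in the runs of 512, at 213 in 2134 and at 24 in 2383. C9 was not listed in either AA piglet, and stood at 30 and 26 in the runs of 512, 78 in 2134 and 14 in 2383. C7 was listed in 512 and 2134 alone, at 6 and 11 in the 2 runs and at 10 in 2134.

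**Figure D2:**
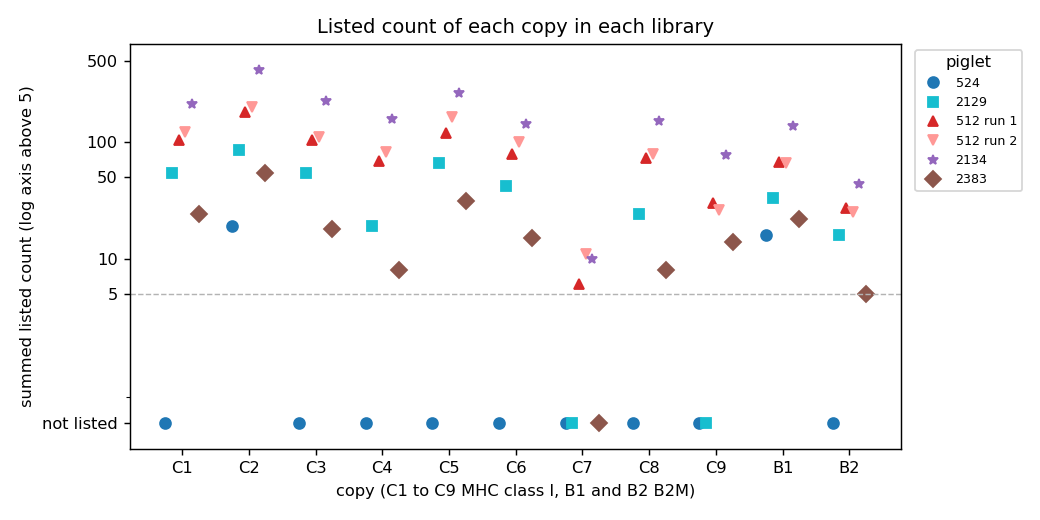
Summed listed count of each copy (log axis above 5, the lowest count in the files) in each of the 6 libraries. Piglet 524 is listed for C2 (19) and B1 (16) alone, and the library of piglet 2134 is the highest in every copy but C7.

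Many MHC class I listings had the same fragment bases as another copy. How a fragment that matches several copies was counted is not stated in the sources used here. Of the 203 listings, 128 (63.1%) had the same 30 bases, from base 101, as a listing of another copy in the same library. These formed 41 sets, of up to 8 copies, and in 11 sets all copies had equal counts. Fragments at the end of alpha 3, at residues 291 to 293, were among the most shared, with starts a few bases apart in different libraries. In piglet 2129 the count there was 9 in all 7 copies listed. In the runs of piglet 512 it was 34 and 43 in 7 copies, and 5 and 6 in C9. In piglet 2134, whose windows are printed above, it ran from 32 in C9 to 102 in C2. In piglet 2383 the most shared fragment was another one, at residue 280, with a count of 8 in each of 7 copies.

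Whole windows were rarely identical. Of 158 distinct MHC class I window sequences, 3 were listed at more than 1 place, each time in C2 and C3. The counts were 9 and 9 in piglet 2129, 34 and 34 in run 1 of 512, and 43 and 43 in run 2. In piglet 2134 they were 102 and 86, so the same 201 bases did not always carry the same count. The copies are therefore uncertain as single genes, and the sums below count each distinct window sequence once per library. When listings with the same 30 bases were counted once, the MHC class I sum fell from 339 to 176 in piglet 2129, from 733 to 357 and from 858 to 468 in the runs of 512, from 1582 to 1004 in 2134 and from 172 to 86 in 2383. In piglet 524 it stayed at 19.

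By protein domain, with each distinct window counted, alpha 3 held the highest share of the MHC class I sum in 5 of 6 libraries. The share was 49.3% in piglet 2129, 55.1% and 61.1% in the runs of 512, 44.9% in 2134 and 56.4% in 2383, with Wilson 95% intervals of 44.0% to 54.6%, 51.5% to 58.7%, 57.8% to 64.3%, 42.4% to 47.3% and 48.9% to 63.6%. These intervals cover counting error only and treat listings with the same 30 bases as separate, so they are too narrow. The ranking also depends on this counting, since the most shared fragments lay in alpha 3. In piglet 2383 a single one entered as 8 counts in each of 7 copies. With the same 30 bases counted once, alpha 3 was below alpha 2 in piglet 2134 and in run 1 of 512. It was then level with alpha 2 in 2129 and below alpha 1 in 2383. Run 2 of 512 was the sole library where alpha 3 stayed the highest. The runs of 1 animal, at 55.1% and 61.1%, lay as far apart as some piglets did. In piglet 524 the sum of 19 held 12 counts in alpha 2 and 7 in alpha 1, and alpha 3 was not listed. At a sum of 19, a share of up to 16.8% in alpha 3 lies within the Wilson interval of 0 counts. Alpha 2 held 33.3% in piglet 2129, 24.8% and 18.6% in the runs of 512, 25.3% in 2134 and 23.3% in 2383. The transmembrane part held 12.1%, 13.2%, 12% and 18.0% in 2129, the 2 runs and 2134, and was not listed in 524 or 2383.

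Inside C2, the fragments gathered at the same places in different libraries. At the end of alpha 1 (residues 111 to 113 of the query), windows starting within 6 bases of each other were listed in all 6 libraries. Their counts were 7 in piglet 524, 13 in 2129, 25 and 14 in the runs of 512, 79 in 2134 and 22 in 2383. This was the sole place of C2 with a listing in every library, and every GG piglet was above both AA piglets on the raw counts summed per piglet. These counts are not scaled for depth, and on scaled counts 17.9% of all regions had their groups apart in this way. In alpha 2, at residues 157 to 168, the counts were 12 in piglet 524, 25 in 2129, 33 and 50 in the runs of 512 and 12 in 2383. Piglet 2134 had 98 at residue 177. At the end of alpha 3, residues 291 to 293, the counts were 9 in piglet 2129, 34 and 43 in the runs and 102 in 2134, with no listing in 524 or 2383.

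**Figure D3:**
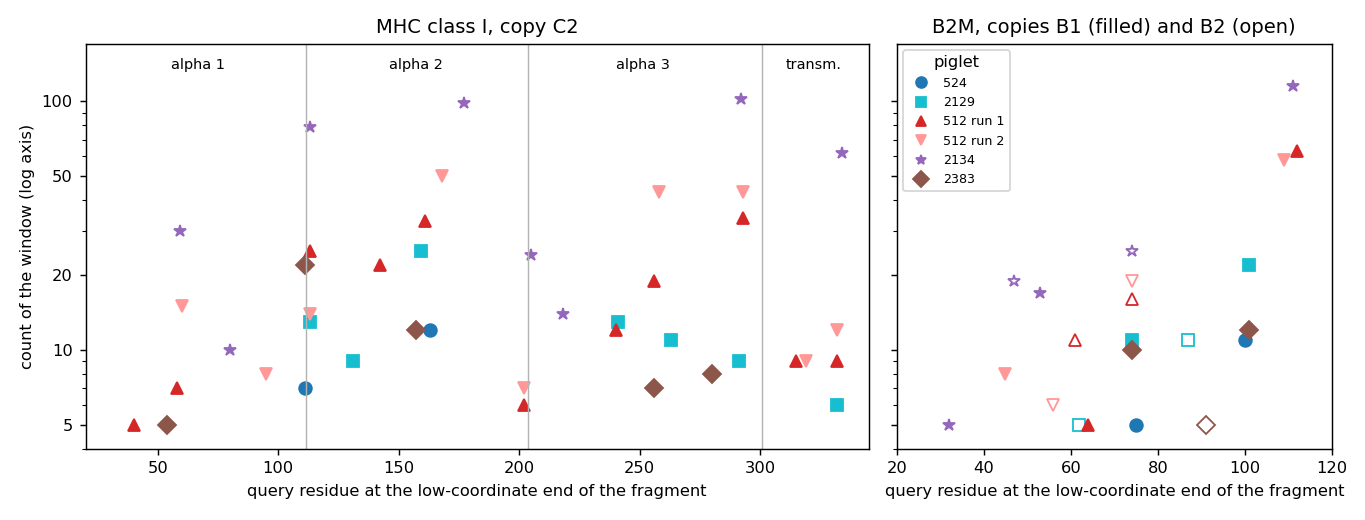
Count of each member window (log axis) against the residue of the query protein at the low-coordinate end of the fragment (window base 101), for copy C2 of MHC class I and for both B2M copies, with 1 symbol per library. Windows at the end of alpha 1 appear in all 6 libraries, and the B2M windows above 50 belong to piglets 512 and 2134.

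B2M was listed at 2 places, B1 at chr1:132686680-132687122, read on the minus strand, and B2 at chr1:132893721-132894053, read on the plus strand. All 333 bases of B2 that the windows cover were identical to B1 in the opposite orientation, and all windows lay in the mature chain. B1 was listed in every library, at 16 in piglet 524, 33 in 2129, 68 and 66 in the runs of 512, 137 in 2134 and 22 in 2383. B2 was not listed in 524 and stood at 16 in 2129, 27 and 25 in the runs, 44 in 2134 and 5 in 2383. The comparison of 30 bases could not find fragments shared by B1 and B2, since base 101 marks opposite ends of a fragment on the 2 strands. Fragments inside the identical stretch cannot be assigned to B1 or B2 by sequence. The B2M sums below may therefore hold such a fragment at B1 and again at B2.

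The piglets also differed in where the B1 windows lay. At residues 109 to 112, the counts were 63 and 58 in the runs of 512 and 115 in 2134, with no listing in the other piglets. At residues 100 to 101, piglets 524, 2129 and 2383 were listed at 11, 22 and 12, and 512 and 2134 were not. Of the piglets listed at residues 100 to 101, 2383 is a GG piglet. The library of 2129, at 127075, was deeper than both runs of 512. The cause of the split was not tested.

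Summed over distinct windows, MHC class I had 19 counts in piglet 524, 339 in 2129, 1591 in 512, 1582 in 2134 and 172 in 2383. Divided by TMM size factors (0.760, 1.03, 1.77, 1.12 and 0.642 in the same order), the scaled sums were 24.99, 328.4, 901.2, 1406.7 and 268.0. Piglet 524 was the lowest and 2383, a GG piglet, was below the AA piglet 2129, so the groups overlapped. On the log2(scaled sum + 1) scale the AA mean was 6.53 ± 2.59 (SD, n = 2) and the GG mean 9.45 ± 1.24 (SD, n = 3). The difference of 2.92, a 7.56-fold higher sum in GG, did not pass the two-sided exact permutation test over piglets (p = 0.3, where 0.1 is the smallest that 2 against 3 allows). Without piglet 524 the difference was 0.996, and without 2129 it was 4.77. With the highest single window of each library in place of the sum it was 1.39, and with 2 counts added for each unlisted member region it was 2.11.

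B2M had 16 counts in piglet 524, 49 in 2129, 186 in 512, 181 in 2134 and 27 in 2383. The scaled sums were 21.0, 47.5, 105.4, 160.9 and 42.1. The order of the piglets was that of MHC class I, with 2134 and 512 at the top, 2383 just below 2129, and 524 at the bottom. The AA mean was 5.03 ± 0.80 (SD, n = 2) and the GG mean 6.50 ± 0.98 (SD, n = 3) on the log2(scaled sum + 1) scale. The difference of 1.47, or 2.77-fold, had p = 0.3 in the same exact permutation test. It was 0.81 without piglet 524 and 0.49 with matches of at least 40 residues alone.

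As parts per 1000000 listed counts, with no other scaling, the order of 2383 and 2129 changed. MHC class I stood at 337 parts in piglet 524, 2668 in 2129, 8543 in 512, 8203 in 2134 and 4061 in 2383. B2M stood at 284, 386, 999, 938.5 and 637. On this scale every GG piglet was above both AA piglets for either chain. The share of all regions with such groups was not computed on this scale, and with TMM scaling it was 17.9%. The scale moved other rows too: with totals alone limma called 43 of 2751 rows, against 0 with TMM. With totals alone the log2 differences were 2.77 and 1.32, each with p = 0.1 in the exact permutation test, the smallest it can give.

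The ratio of the 2 chains needs no size factor, but it still depends on the lowest listed count of 5. Piglet 524 had 2 MHC class I and 2 B2M windows listed, and 2134 had 51 and 5. The part of this limit in the ratio was not tested. The MHC class I sum was 1.19 times the B2M sum in piglet 524, 6.92 times in 2129, 8.55 times in 512, 8.74 times in 2134 and 6.37 times in 2383. Piglet 524 stood apart from the other 4, which lay between 6.37 and 8.74, and the groups overlapped. A fragment shared by MHC class I copies enters the sum once per distinct window, and none was shared in piglet 524. The log2 ratio averaged 1.5 ± 1.79 in AA (SD, n = 2) and 2.95 ± 0.28 in GG (SD, n = 3), and its difference of 1.45 had p = 0.2 in the exact permutation test. Without piglet 524 it was 0.18. With listings of the same 30 bases counted once it was 1.05, and with copies C2 and B1 alone it was 0.66, choices made after seeing the data. With the highest single window of each library it was -0.10, so its direction turned.

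**Figure D4:**
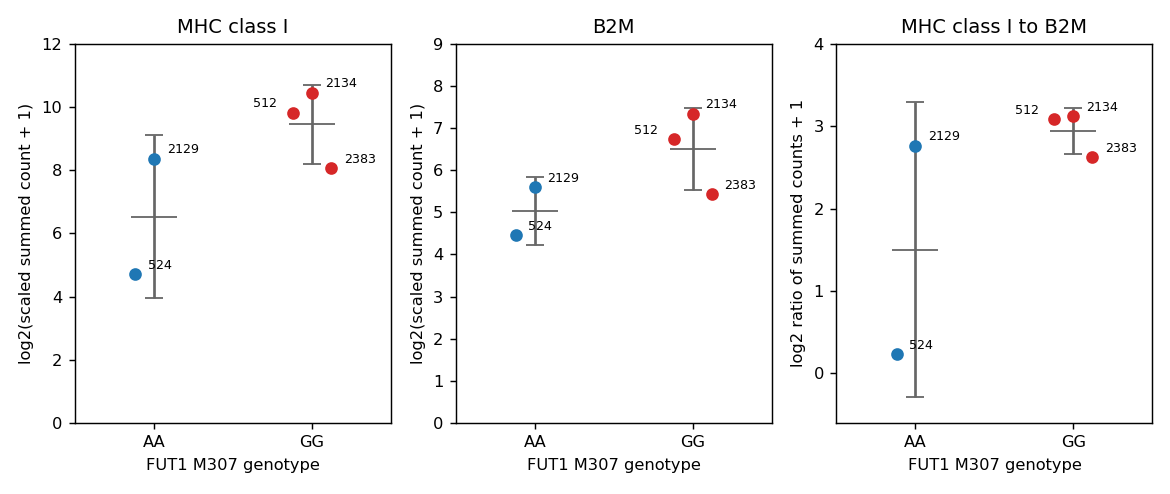
Log2 of the scaled summed count + 1 for MHC class I and B2M, and log2 ratio of the 2 sums, by genotype, with 1 point per piglet and bars for the mean ± SD of 2 AA and 3 GG piglets. Piglet 524 is the lowest in each plot, and 2383 lies below 2129 in all 3.

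Within the full-sib pairs, with size factors computed again without piglet 2383, both differences pointed the same way. For MHC class I the GG sib was higher by 5.18 in the pair of 524 and 512 and by 2.17 in the pair of 2129 and 2134, on the log2 scale. For B2M the differences were 2.33 and 1.82. The log2 ratio was higher in the GG sib by 2.86 and by 0.36. With 2 pairs the exact paired permutation p was 0.5 for each, the smallest it can be.

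The 2 sums were also tested beside all other regions of the series, in a limma fit on log2(scaled count + 1) over 2751 rows with Benjamini-Hochberg adjustment. The difference was 2.92 ± 1.15 (SE) for MHC class I and 1.47 ± 0.62 (SE) for B2M, and both had an adjusted p of 0.538 with unadjusted p of 0.0411 and 0.0524. Over all rows the median difference was 0.20, and no row was called at an adjusted p under 0.05 (0%), while 241 had an unadjusted p under 0.05. With the sib pair as a replicate block and piglet 2383 left out, limma gave adjusted p of 0.0434 for MHC class I and 0.0451 for B2M, with 49 rows called. With totals alone the adjusted p was 0.00853 for MHC class I and 0.413 for B2M.

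Windows of all kinds were merged where they overlap, and 23 regions held MHC class I windows and 2 held B2M windows. Of these, 20 and 2 had at least 10 counts in at least 2 piglets and were tested by limma over 2771 regions. None was called at an adjusted p under 0.05 (0% of all regions). Of the 22 tested, 8 had under 10 counts in both AA piglets, so that they passed this filter through GG alone and had to differ in that direction. In 4 regions, 2 of them tested, the counts include overlapping windows that are no members. The median difference was 2.11 for MHC class I and 1.44 for B2M, against 0.21 over all regions. At an unadjusted p under 0.05, 4 MHC class I regions and 1 B2M region were higher in GG, against 6.64% of all regions. Every GG piglet was above both AA piglets in 3 MHC class I regions and 1 B2M region, against 17.9% of all regions. Of the 25 member regions, 3 were listed in all 5 piglets, so a set value of 2 counts enters the differences of the others. Regions of different copies share counts and are not independent of each other.

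By main domain, the 9 alpha 3 regions had a median difference of 2.54, the 3 tested alpha 1 regions 2.31, the 6 alpha 2 regions 1.70 and the 2 tested transmembrane regions 1.18. Each domain included regions with under 10 counts in both AA piglets, which had to differ in that direction. The 2 tested transmembrane regions were all of this kind, so these medians do not compare the domains. The 3 MHC class I regions with the highest counts lay mainly in alpha 3, with transmembrane windows merged into them (107 of 422 counts in C2). The region of C2 at chr7:24461109-24461775 had 0 listed counts in piglet 524, 39 in 2129, 83 and 107 in the runs of 512, 178 in 2134 and 15 in 2383. That of C5 at chr7:24530516-24531194 had 0, 34, 76, 105, 159 and 15 in the same order, and that of C1 at chr7:24433050-24433726 had 0, 36, 75, 99, 143 and 14. In all 3, piglet 2383 was below 2129 and the groups overlapped, with differences of 2.66 ± 1.17, 2.68 ± 1.11 and 2.54 ± 1.12 (SE) and a limma adjusted p of 0.535 each.

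The top alpha 2 region, C2 at chr7:24462224-24462646, had 12 counts in piglet 524, 34 in 2129, 61 and 57 in the runs, 122 in 2134 and 12 in 2383, a difference of 1.14 ± 0.75 (SE, limma adjusted p = 0.543). The top alpha 1 region, C2 at chr7:24462727-24463144, had 7, 13, 37, 37, 119 and 27 in that order. There the GG piglets lay above both AA piglets, with a difference of 2.31 ± 0.48 (SE, limma adjusted p = 0.511). The alpha 1 region of C5 had 0, 5, 24, 35, 48 and 8, of which member windows held 0, 5, 8, 21, 34 and 8. It had a difference of 2.57 ± 0.61 (SE, limma adjusted p = 0.535), and its groups did not overlap either. With under 10 counts in both AA piglets, it passed the count filter through GG alone and had to differ in that direction. The alpha 3 region of C9, listed in GG piglets alone, had a difference of 3.52 ± 0.55 (SE, limma adjusted p = 0.30), which rests on 2 counts set for each AA piglet. Of the regions that are mainly transmembrane, the top one, C6 at chr7:26559945-26560147, had 0, 9, 14, 16, 41 and 0, a difference of 1.24 ± 0.99 (SE, limma adjusted p = 0.595). For B2M, region B1 had a difference of 1.36 ± 0.55 (SE, limma adjusted p = 0.535), with groups that did not overlap. Region B2 had 1.51 ± 0.88 (SE, limma adjusted p = 0.535), with groups that did.

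**Figure D5:**
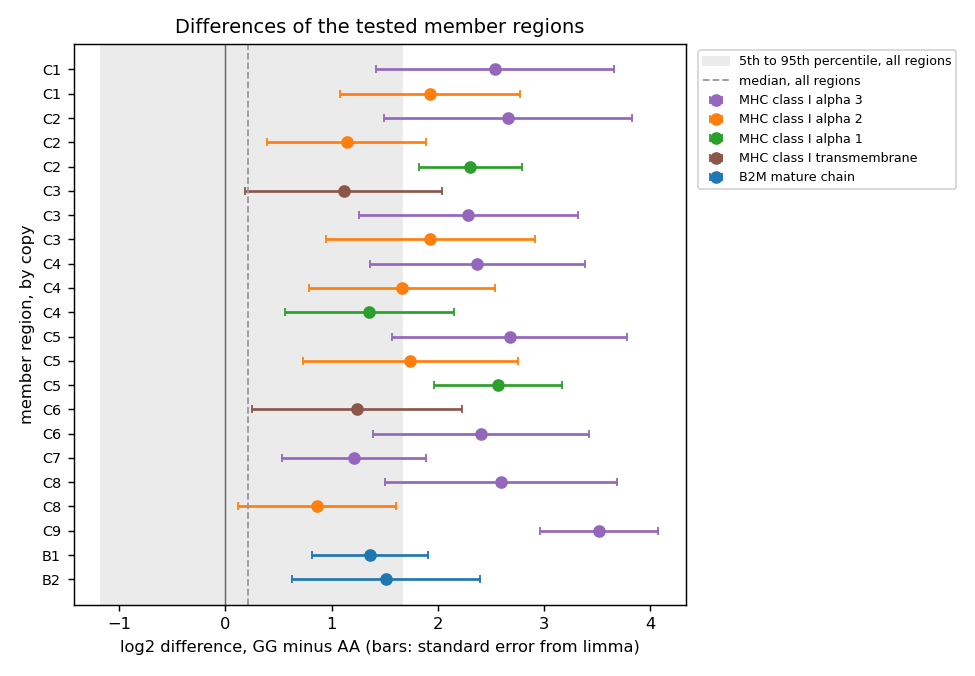
Log2 difference, GG minus AA, of each of the 22 tested member regions with its limma standard error, coloured by main protein domain, over the median (0.21) and the 5th to 95th percentile (-1.16 to 1.67) of all 2771 regions. C9 is the highest at 3.52, and none passed at an adjusted p under 0.05; 8 of the 22, C9 among them, had under 10 counts in both AA piglets and passed the count filter through GG alone.

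The runs of piglet 512 give the technical spread. Run 1 held 51.7% of all listed counts of the 2 runs. It held 46.1% of the MHC class I sum (733 of both runs' counts, against 858 in run 2; exact binomial 95% interval 43.6% to 48.6%) and 51.1% of the B2M sum (95 against 91; 43.7% to 58.5%). The MHC class I share thus lay below that of all counts by more than counting error, though its shared windows are not independent counts. Of 24 member regions listed in either run, 22 were listed in both, and in 18 of these the interval held the share of all counts. The share of run 1 in them ran from 35.3% to 61.5%.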

How the data were processed

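Small RNA of duodenum was listed for 6 libraries of 5 piglets. The deposited values, of a kind no usual unit names, are whole-number counts per window of 201 bases, whose place and letters stand beside it, per the file headers; 4 files add 1 mitochondrial record of 16769 bases. For the aligner, the filters and the build, the sources used here give nothing. The members and lists were chosen with earlier results of these data known.

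Windows were searched with blastx (BLAST 2.17.0, e-value 10, no masking) against 4 query proteins, pig and human MHC class I alpha chain and B2M. No protein sequence was given, so these queries were written from memory and were not checked against a database; percent identities and residue numbers refer to them, and they are not printed. Domains were set from where matches break off, at residues 111, 203 and 300, by the position of window bases 101 to 130. Member windows less than 5000 bases apart formed a copy. In sums, a sequence listed more than once in a library was taken at its highest count.

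Windows that shared 1 base or more were joined, giving 24658 regions. TMM factors (own code, trimming 30% of ratios and 5% of abundances) came from regions listed in every piglet. Regions with at least 10 counts in at least 2 piglets were tested with limma 3.58.1 (R 4.3.3, mean-variance trend) on log2(scaled count + 1), an unlisted region set at 2 counts, with Benjamini-Hochberg adjustment and a threshold of 0.05; the script was tested on simulated data. Sums were tested by exact permutation over piglets (Python 3.11.15). Sib pairs come from the labels; deviations from group means of the 2 complete pairs correlated at r = 0.21 across 2771 regions, which are not independent.

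Regions given by value were the 3 MHC class I and 2 B2M regions with the highest counts, the top region of each domain and, chosen after their values were seen, those whose groups did not overlap. The lists of antigen presentation, interferon and cell type marker genes and the regions most like MHC class I in pattern needed named proteins and were not analysed here, so the tissue label was not checked against markers.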

Additional observations from a re-analysis of the deposited data

Results flagged for a closer look

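Some listed signal lay outside the members, and its part in the results was not tested. MHC class I matches below the interval on chromosome 7, at chr7:24377700-24396041, made 24 listings with a summed count of 231: none in piglet 524, 16 in 2129, 66 and 57 in the runs of 512, 87 in 2134 and 5 in 2383. With matches outside the interval included, a choice made after seeing the data, the MHC class I difference was 2.96 on the log2 scale against 2.92. A match on chromosome 1, at chr1:76942983-76943183, was listed in piglet 2134 alone, at a count of 5 and 73.0% identity.

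Windows within 3000 bases downstream of B2M copy B1 that do not translate to B2M had a summed count of 717, above the 342 of B1 itself. They stood at 31 in piglet 524, 107 in 2129, 146 and 121 in the runs of 512, 262 in 2134 and 50 in 2383. Downstream of B2 the sum was 333, at 15, 52, 74, 58, 114 and 20 in the same order, against 117 in B2. In both places the library of piglet 524 was the lowest of the 6 and that of 2134 the highest. Upstream of B1 a single listing had a count of 6, in piglet 2134. These windows were left unnamed.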

How the results depend on the processing

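The MHC class I and B2M sums stayed higher in GG under all 20 and 19 alternatives, 4 and 3 of them chosen after seeing the data, and none passed the permutation test, which cannot reach 0.05 here. The log2 difference ran from 1.39 (highest single window) to 3.67 (sib pairs) for MHC class I and from 0.49 (matches of at least 40 residues) to 2.07 for B2M. Leaving out 1 piglet at a time, it ran from 0.996 to 4.77 and from 0.81 to 2.07, and that of the ratio from 0.18 to 2.71. With listings of the same 30 bases counted once, a choice made after seeing the data, the MHC class I difference was 2.52, and with copy C2 alone it was 2.03. The ratio turned to -0.10 with the highest single window, and the cause was not tested.

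Over all regions, where limma called 0, it called 47 with total counts alone, 92 with no filter on low counts, and 0 to 4 without 1 piglet. With the members summed it called 43 with totals alone, 77 with no filter, and 0 to 4 without 1 piglet. Among these rows, with no filter, MHC class I had an adjusted p of 8.8e-15 and B2M 0.0751; most unfiltered regions are unlisted in most piglets and sit at the set value. Over the 14 alternatives the adjusted p of B2M ran from 0.0451 to 0.846. With the sib pair as a replicate block, and 2383 left out, 67 regions were called, and 49 with the members summed; the paired differences of the sums were 3.67, 2.07 and, for the ratio, 1.61. The planned quasi-likelihood count test was not run, because the lists lack counts under 5. The depth of piglets 524 and 2383 limits which members could be listed.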
